A study of Mus musculus with 6 samples.

Results

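The genes that carry pyruvate into the mitochondrion and turn it through the citric acid cycle were examined in leg muscle of fetal mice lacking the long noncoding RNA *SYISL*. The group holds 36 of the 56262 genes listed, chosen by symbol for their place in the pathway. It covers the pyruvate carrier, the pyruvate dehydrogenase complex with its kinases and phosphatases, the enzymes of the cycle, the cytosolic partners of the malate-aspartate shuttle and the mitochondrial malic enzymes. RNA-seq counts came from leg muscle at embryonic day 18.5 (E18.5), with 3 samples from WT fetuses and 3 from *SYISL* KO fetuses, and the comparison asks how gene expression in fetal muscle differs when *SYISL* is absent. WT fetuses came from matings of WT mice and KO fetuses from matings of KO mice, so the genotype of the fetus, the litter and the genotype and gut microbiota of the mother cannot be told apart. The sources do not say whether a sample was 1 fetus or a pool, nor whether samples of 1 group shared a litter, so p-values measure only the spread between these samples.

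Pyruvate enters the mitochondrial matrix through a carrier, and the pyruvate dehydrogenase complex turns it into acetyl-CoA. Kinases switch that complex off by phosphorylation and phosphatases switch it back on. Citrate synthase joins acetyl-CoA to oxaloacetate, and the dehydrogenases of the cycle then pass electrons to the respiratory chain. In skeletal muscle these enzymes are most abundant in oxidative fibres, and they are shared by nearly all cell types.

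All 36 genes passed the filter on low counts. In KO fetuses, 32 were higher than in WT fetuses at an adjusted p under 0.05 (quasi-likelihood test of edgeR, Benjamini-Hochberg), and none was lower. Of these 32, 17 also changed by more than 1.5-fold and are called upregulated below, while 15 rose by less. Among all 22071 genes tested, 8.31% were called higher and 8.39% lower by that rule, and 21.9% were higher and 23.1% lower at any fold. *Pdk3*, *Pdp2*, *Suclg2* and *Me2* did not pass the test. The median log2 fold change of the 36 genes was 0.58, against -0.0041 over all genes tested.

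Most of the 36 genes are well counted, and 35 had a mean of at least 10 CPM, the usual count unit scaled to a common library size, here after TMM correction. Among the 10647 genes of that level, a restriction chosen after the values were seen, 5.15% were called higher and 25.4% were higher at any fold. Of the 35, 16 were called higher and 31 were higher at any fold. Without regard to any test, all 3 KO values lay above all 3 WT values for 33 of the 36 genes and below them for 2, where 27.3% and 28.5% of all genes tested did so. The summed level of the 36 genes was 3701 ± 61.2 CPM in WT fetuses and 5455 ± 490 CPM in KO fetuses (SD, n = 3), a ratio of 1.47.

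**Figure D1:**
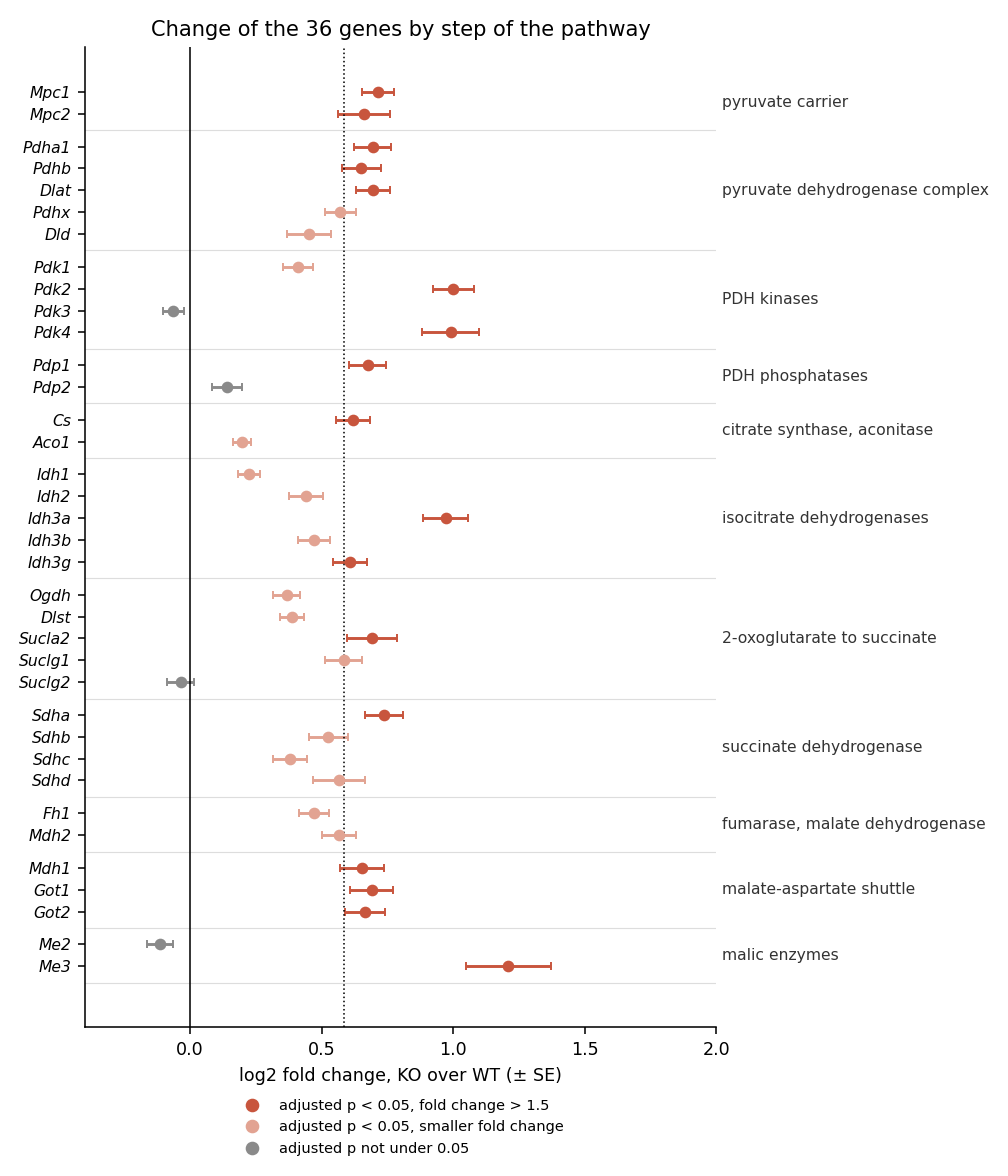
Log2 fold change of KO over WT (x axis, ± SE from edgeR) for each of the 36 genes (rows), grouped by step of the pathway; the dotted line marks a fold change of 1.5 (0.58 on the log2 scale). In the plot, 17 genes pass both thresholds (dark red), 15 pass the adjusted p alone (light red) and 4 pass neither (grey).

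The 3 KO samples were not alike. KO replicate 1 held the lowest KO value for 32 of the 36 genes, and its summed level was 4898 CPM, against 5817 and 5652 CPM in KO replicates 2 and 3. WT samples lay closer together, at 3742, 3631 and 3730 CPM, and WT replicate 2 held the lowest WT value for 26 genes. The same 2 libraries, KO replicate 1 and WT replicate 2, had 0.075 and 0.024 CPM of Y-linked counts (per unscaled library), while the other 4 had between 61.8 and 172. Y-linked counts differ with the sex of a fetus. With their share as a covariate in the fit, 20 of the 36 genes were called higher and the median log2 fold change was 0.62. Their part in the levels of single samples was not tested. Without KO replicate 1, 22 of the 36 genes were called higher, and without KO replicate 2, 13 were.

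**Figure D2:**
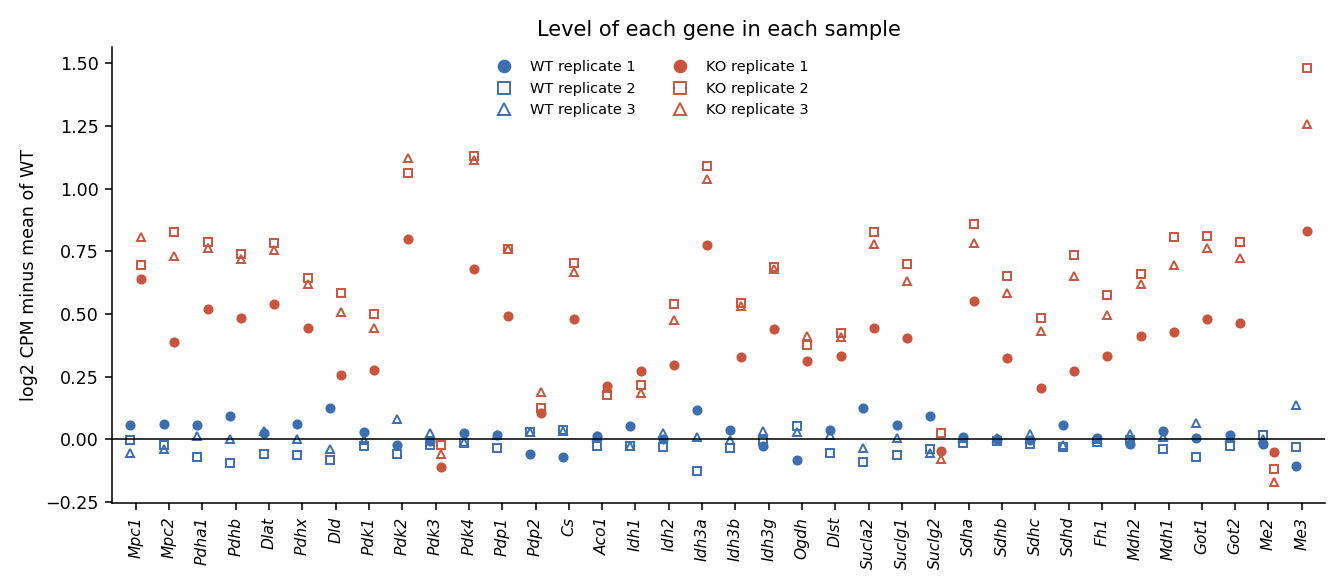
Log2 CPM of each gene in each sample minus its mean over the WT samples (y axis), with WT in blue and KO in red and a separate marker for each replicate. The KO points of 33 genes lie above all WT points, and KO replicate 1 (filled red circles) is the lowest KO point for 32 genes.

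Libraries held between 82054811 and 102233181 counts. The label leg muscle was checked against a list of skeletal muscle fibre genes, and all 20 were detected and tested. All 20 were higher in KO fetuses, 19 of them by the call rule, with a median log2 fold change of 1.24. Their summed level ran from 20407 to 22184 CPM in WT and from 42512 to 53825 CPM in KO samples. Markers of other tissues also moved. All 15 epidermal genes were lower (17139 to 25582 CPM in WT, 736 to 848 in KO), as were all 7 red blood cell genes (3947 to 5191 CPM and 548 to 669). Of 10 fat genes, 9 were higher and 1 was lower (121 to 155 CPM in WT, 388 to 451 in KO). Of all genes tested, 21.9% were higher and 23.1% lower at an adjusted p under 0.05, and 8.31% were called higher and 8.39% lower. None of the genes on these 4 lists was at 0 in all samples. In bulk tissue, fewer cells of a type and less RNA per cell cannot be told apart, and the part of these differences in the values below was not tested. *Synpo2*, whose intron *SYISL* overlaps, averaged 136 ± 4.21 CPM in WT fetuses against 214 ± 18.9 CPM in KO fetuses (log2 fold change 0.66 ± 0.063, adjusted p = 2.89e-05). Counts per gene do not show *SYISL* itself.

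To see what the genes share in sequence, the 250 bases before the start were searched for 6 motifs and the core of the first in the 32 members that the RefSeq promoter table holds (GRCm38.p6), on both strands. The nuclear receptor motif TCAAGGTCA of the ERR factors was in none of the 32 (0.387% of the 32851 promoters of the table), and its core AAGGTCA, which lies within it, was in 1 (4.08%). The NRF1 motif CGCATGCG was in 1 (1.55%), the ETS motif CCGGAAGT in none (2.88%), and the YY1 motif AAGATGGC in 1 (1.56%). TGACGTCA, bound by CREB-family factors, was in 2 (1.55%). The E-box CAGCTG of myogenic factors was in *Dld*, *Pdk1* and *Got2* (13.0%). A member was counted where any of its listed starts held the motif, while these percentages are per promoter. Counted by gene over the 13988 tested genes in the table, the shares were 0.322% for TCAAGGTCA, 3.80% for AAGGTCA, 2.87% for CGCATGCG, 5.35% for CCGGAAGT, 2.16% for AAGATGGC, 2.60% for TGACGTCA and 15.3% for CAGCTG. These counts are descriptions of the letters in this window, and most of the genes that moved together held none of these motifs there. The stretches that do hold one, E-boxes aside, follow, to show where in the window each motif lies. They were picked after the matches were seen, read 5′ to 3′ on the strand of the gene, and have the motif in capitals.
*Got1*, chr19:43524819-43524855, minus strand, AAGGTCA 245 bases before the start: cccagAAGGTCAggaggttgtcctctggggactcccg
*Idh3g*, chrX:73786995-73787052, minus strand, AAGATGGC 130 bases before the start: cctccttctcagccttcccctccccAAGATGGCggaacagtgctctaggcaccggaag
*Mdh2*, chr5:135778497-135778554, plus strand, TGACGTCA 127 bases before the start: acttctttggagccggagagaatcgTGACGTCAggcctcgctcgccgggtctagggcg
*Ogdh*, chr11:6291521-6291578, plus strand, TGACGTCA 51 bases before 1 of its starts: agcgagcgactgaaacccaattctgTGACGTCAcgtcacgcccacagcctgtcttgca
*Ogdh*, chr11:6292519-6292576, plus strand, CGCATGCG 35 bases before another start: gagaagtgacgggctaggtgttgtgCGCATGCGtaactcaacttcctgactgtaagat

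The mitochondrial pyruvate carrier is a dimer of MPC1 and MPC2, and both genes were upregulated. *Mpc1* (chr17:8282904-8297661) stood at 14.4, 13.8 and 13.3 CPM in WT and at 21.5, 22.3 and 24.2 CPM in KO fetuses, a log2 fold change of 0.71 ± 0.062 (adjusted p = 1.49e-05). *Mpc2* (chr1:165460637-165481214) stood at 24.6, 23.2 and 23.0 CPM in WT and at 30.9, 41.9 and 39.2 CPM in KO fetuses (0.66 ± 0.098, adjusted p = 0.00048). All KO values of both genes were above all WT values, and KO replicate 1 was the lowest KO sample for each. Without KO replicate 2, *Mpc2* changed by 0.57 and fell under the fold threshold. The ratio of *Mpc1* to *Mpc2* did not separate the genotypes. *Mpc1* shares 480 exon bases with a transcript on the other strand (43 to 99 counts), and the strand setting of the counting is not known.

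All 5 genes of the pyruvate dehydrogenase complex were higher in KO fetuses, and 3 were called. *Pdha1* (chrX:160122209-160138413), the catalytic subunit that carries the regulatory phosphorylation sites, rose from 132, 121 and 128 CPM in WT to 182, 219 and 216 CPM in KO fetuses (0.69 ± 0.070, adjusted p = 4.14e-05). Its partner *Pdhb* (chr14:8165996-8173025) rose from 129, 113 and 121 CPM to 169, 202 and 198 CPM (0.65 ± 0.073, adjusted p = 8.55e-05), and with library size alone its change of 0.58 was just under the fold threshold. *Dlat* (chr9:50634633-50659780), the lipoyl-bearing acetyltransferase core, rose from 81.8, 77.3 and 82.2 CPM to 117, 138 and 136 CPM (0.70 ± 0.064, adjusted p = 2.08e-05). The genotypes did not overlap for any of the 3. *Pdhx*, which tethers the last enzyme to the core, changed from 26.2 ± 1.15 to 39.0 ± 2.86 CPM (0.57 ± 0.061, adjusted p = 5.69e-05). *Dld*, the dihydrolipoamide dehydrogenase that this complex shares with other 2-oxoacid dehydrogenases, changed from 121 ± 9.32 to 166 ± 19.3 CPM (0.45 ± 0.085, adjusted p = 0.00199) and was the member of the complex with the smallest change. *Pdha1* shares 603 exon bases with *Map3k15* on the other strand, a gene with 71 to 120 counts.

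The 4 pyruvate dehydrogenase kinases split. *Pdk2* and *Pdk4* approached a doubling, *Pdk1* rose by less, and *Pdk3* did not pass the test. *Pdk2* (chr11:95026258-95041354), a widely expressed kinase, stood at 58.0, 56.5 and 62.3 CPM in WT and at 102, 123 and 128 CPM in KO fetuses (1.0 ± 0.079, adjusted p = 7.58e-06). *Pdk4* (chr6:5483351-5496309), the kinase known for its induction by fasting and fatty acids, stood at 15.1, 14.7 and 14.8 CPM in WT and at 23.8, 32.5 and 32.2 CPM in KO fetuses (0.99 ± 0.11, adjusted p = 6.64e-05). In both genes the lowest KO sample, replicate 1, was still above every WT sample.

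*Pdk1* (chr2:71873224-71903858), a target of the hypoxia response, stood at 94.3, 90.9 and 92.5 CPM in WT and at 112, 131 and 126 CPM in KO fetuses (0.41 ± 0.056, adjusted p = 0.000283). That rise passed the test in all 16 alternative fits but stayed under the fold threshold in each. *Pdk3* (chrX:93764607-93832201) stood at 41.2, 40.7 and 42.1 CPM in WT and at 38.3, 40.6 and 39.7 CPM in KO fetuses (-0.064 ± 0.039, adjusted p = 0.216). Its KO values lay just under the WT values, and the fitted change was -0.13 with library size alone and 0.0039 with upper-quartile scaling.

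Because the kinases moved by different amounts, their shares shifted. As percentages of the summed CPM per kilobase of exon of the 4 kinases, *Pdk2* made up 36.6 ± 0.984% in WT and 48.4 ± 1.29% in KO fetuses, and *Pdk3* 31.7 ± 0.287% and 20.2 ± 1.46%. *Pdk1* went from 23.4 ± 0.565% to 20.6 ± 0.605%, and *Pdk4* from 8.33 ± 0.235% to 10.9 ± 0.856%. The genotypes did not overlap for any of the 4 shares. Within a library, the ratio of *Pdk3* to *Pdk2* per kilobase was 0.877, 0.890 and 0.834 in WT and 0.462, 0.408 and 0.383 in KO samples, a change that no scaling of the libraries can alter. The log2 change of that ratio was -1.06, and of *Pdk1* to *Pdk2* -0.59, each at an exact two-sided permutation p of 0.1, the smallest that 3 against 3 samples allow. The ratio of *Pdk4* to *Pdk2* overlapped between genotypes, with a log2 change of -0.020 (exact permutation p = 0.7).

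The phosphatases, which reverse the action of the kinases, split as well. *Pdp1* (chr4:11958184-11966452), the calcium-stimulated form known from muscle, rose from 27.1, 26.2 and 27.2 CPM in WT to 37.7, 45.4 and 45.4 CPM in KO fetuses (0.67 ± 0.070, adjusted p = 5.1e-05). *Pdp2* averaged 12.9 ± 0.454 CPM in WT fetuses against 14.2 ± 0.420 CPM in KO fetuses (0.14 ± 0.057, adjusted p = 0.076). Its KO values lay above all WT values without passing the test. The ratio of *Pdp1* to *Pdp2* per kilobase was 2.76, 2.51 and 2.60 in WT and 3.42, 4.07 and 3.90 in KO samples (log2 change 0.53, exact permutation p = 0.1).

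**Figure D3:**
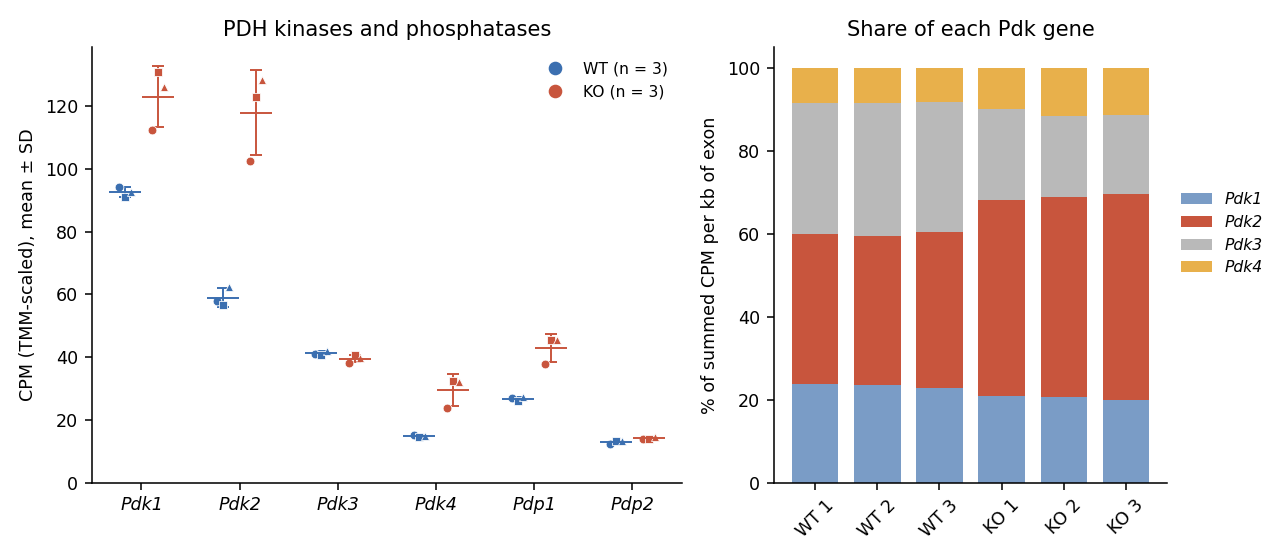
Left, CPM (y axis) of the 4 pyruvate dehydrogenase kinase and 2 phosphatase genes, with points for single samples (circle, square and triangle for replicates 1, 2 and 3) and bars for mean ± SD of 3 samples. Right, the share of each *Pdk* gene in the summed CPM per kilobase of exon, per sample, where *Pdk2* takes 36.6% on average in WT and 48.4% in KO samples.

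At the entry of the cycle, *Cs* (chr10:128337734-128362479), citrate synthase and a common marker of mitochondrial content, stood at 288, 311 and 310 CPM in WT and at 422, 493 and 481 CPM in KO fetuses (0.62 ± 0.066, adjusted p = 5.71e-05). By group mean it was the most counted of the 36 genes, although *Idh2* was above it in WT replicate 1 (295 against 288 CPM). The values of *Cs* did not overlap between genotypes. With library size alone, without WT replicate 1 or without KO replicate 2 it passed the test but not the fold threshold. *Aco1*, the cytosolic aconitase that doubles as an iron sensor, rose by only 0.20 ± 0.034 (54.9 ± 0.842 to 63.0 ± 0.810 CPM, adjusted p = 0.00129).

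Isocitrate dehydrogenases exist as an NAD-dependent enzyme of 3 kinds of subunit in the cycle and as single-gene NADP-dependent enzymes in the cytosol (*Idh1*) and the mitochondrion (*Idh2*). All 5 genes were higher in KO fetuses, with unequal sizes. *Idh3a* (chr9:54586334-54604661), the catalytic subunit, rose from 129, 109 and 120.3 CPM in WT to 205, 254 and 245 CPM in KO fetuses (0.97 ± 0.087, adjusted p = 1.79e-05). Its lowest KO value was well above its highest WT value. *Idh3g* (chrX:73778963-73786897), a regulatory subunit, rose from 111, 113 and 116 CPM to 154, 182 and 181 CPM (0.61 ± 0.064, adjusted p = 5.63e-05). *Idh3b* changed by 0.47 ± 0.059, *Idh2* by 0.44 ± 0.063 and *Idh1* by 0.22 ± 0.041, with adjusted p of 0.000174, 0.000389 and 0.00168. *Idh3g* lost its call without KO replicate 2 or 3 and with library size alone, where its rise fell just under the fold threshold.

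*Idh3a* therefore gained on its partners. Per kilobase, the ratio of *Idh3b* to *Idh3a* was 1.66, 1.87 and 1.73 in WT and 1.28, 1.20 and 1.24 in KO samples (log2 change -0.50), and that of *Idh3g* to *Idh3a* 1.61, 1.94 and 1.81 against 1.41, 1.35 and 1.39 (-0.37). The ratio of *Idh3a* to the NADP-dependent *Idh2* went from 0.224, 0.194 and 0.205 to 0.289, 0.304 and 0.306 (0.53). For each of these 3 ratios the genotypes did not overlap and the exact permutation p was 0.1. Per kilobase of all annotated exons, *Idh2* had the highest level of all 36 genes in both genotypes. It stood at 114 CPM per kilobase in WT and 154 in KO fetuses.

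From 2-oxoglutarate to succinate, 4 of 5 genes were higher and 1 was called. *Ogdh* and *Dlst*, the first 2 enzymes of the 2-oxoglutarate dehydrogenase complex, both rose, from 249 ± 12.5 to 321 ± 11.3 CPM (0.37 ± 0.051, adjusted p = 0.000335) and from 208 ± 6.80 to 273 ± 9.10 CPM (0.39 ± 0.045, adjusted p = 0.000108). Their ratio to each other overlapped between genotypes. Succinyl-CoA synthetase pairs the shared alpha subunit of *Suclg1* with a beta subunit that makes ATP (*Sucla2*) or GTP (*Suclg2*). *Sucla2* (chr14:73525319-73596142) rose from 114, 98.6 and 103 CPM in WT to 143, 186 and 180.4 CPM in KO fetuses (0.69 ± 0.096, adjusted p = 0.000321).

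*Suclg1* changed from 71.8 ± 2.94 to 108 ± 11.3 CPM (0.58 ± 0.071, adjusted p = 0.00014), just under the fold threshold, and passed it in 6 of 16 alternative fits. *Suclg2* stood at 37.5, 34.3 and 33.9 CPM in WT fetuses and at 34.0, 35.8 and 33.3 CPM in KO fetuses (-0.036 ± 0.052, adjusted p = 0.613), with overlapping samples. The ratio of *Sucla2* to *Suclg2* per kilobase was 3.53, 3.33 and 3.51 in WT and 4.87, 6.04 and 6.28 in KO samples (log2 change 0.72, exact permutation p = 0.1). It was the ratio with the largest rise among the 19 examined.

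Succinate dehydrogenase, the enzyme that the cycle shares with the respiratory chain as complex II, was higher in all 4 of its genes. *Sdha* (chr13:74322254-74350280), the flavoprotein that oxidizes succinate, rose from 219, 216 and 219 CPM in WT to 319.9, 396 and 376 CPM in KO fetuses (0.74 ± 0.072, adjusted p = 3.34e-05) and was called. The iron-sulfur subunit *Sdhb* changed by 0.53 ± 0.073 (adjusted p = 0.000323). The membrane anchors *Sdhc* and *Sdhd* changed by 0.38 ± 0.066 and 0.57 ± 0.10 (adjusted p = 0.00125 and 0.00142). No WT and KO samples overlapped for any of the 4. The ratio of *Sdha* to *Sdhb* was among the steadiest within a genotype, at 1.34, 1.33 and 1.34 per kilobase in WT and 1.57, 1.55 and 1.54 in KO samples (log2 change 0.21, exact permutation p = 0.1).

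*Fh1*, fumarase, changed from 76.1 ± 0.414 to 105 ± 8.97 CPM (0.47 ± 0.057, adjusted p = 0.000143). *Mdh2*, the mitochondrial malate dehydrogenase that closes the cycle, changed from 237 ± 3.16 to 351 ± 31.6 CPM (0.57 ± 0.064, adjusted p = 8.68e-05). Both were higher in every KO sample than in any WT sample and neither was called.

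The malate-aspartate shuttle carries reducing equivalents from the cytosol to the matrix, and its 3 enzymes on the list were all called. *Mdh1* (chr11:21556787-21572367), the cytosolic malate dehydrogenase, rose from 165, 157 and 163 CPM in WT to 217, 283 and 262 CPM in KO fetuses (0.65 ± 0.083, adjusted p = 0.000193). The cytosolic aspartate aminotransferase *Got1* (chr19:43499752-43524605) rose from 36.7, 34.9 and 38.3 CPM to 51.0, 64.2 and 62.1 CPM (0.69 ± 0.080, adjusted p = 0.000105). Its mitochondrial counterpart *Got2* (chr8:95864134-95888547) rose from 165, 160.4 and 164 CPM to 225, 282 and 269 CPM (0.66 ± 0.075, adjusted p = 8.58e-05). Between the cytosolic and the mitochondrial forms, the ratios of *Mdh1* to *Mdh2* and of *Got1* to *Got2* overlapped between genotypes (log2 changes 0.081 and 0.026, exact permutation p = 0.2 and 0.5). Without KO replicate 2 or with library size alone, *Mdh1* passed the test but not the fold threshold.

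The 2 mitochondrial malic enzymes, which turn malate into pyruvate, went apart. *Me3* (chr7:89632392-89854359), the NADP-dependent form, was the least counted of the 36 genes and the only one to change by more than 2-fold, at 1.48, 1.56 and 1.75 CPM in WT and 2.84, 4.45 and 3.81 CPM in KO fetuses (1.21 ± 0.16, adjusted p = 0.000247). *Me2* (chr18:73769903-73815449), the NAD-dependent form, stood at 22.9, 23.5 and 23.3 CPM in WT and at 22.4, 21.4 and 20.6 CPM in KO fetuses (-0.11 ± 0.050, adjusted p = 0.0938). Every KO value of *Me2* was under every WT value, and it passed the test as lower only with library size alone (-0.18) and with the Y-linked share as a covariate (-0.13). The ratio of *Me2* to *Me3* per kilobase fell from 31.2, 30.4 and 26.8 to 15.9, 9.69 and 10.9, with a log2 change of -1.31. *Me3* shares 569 exon bases with an antisense gene that had 2 to 5 counts.

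Over the 19 ratios of paired genes within a library, 5 were higher and 8 lower in KO samples without overlap, and 6 overlapped. Of all single genes tested, 27.3% were higher and 28.5% lower without overlap. No such share was taken for ratios of other gene pairs, so these counts are not a trait of the pathway. The exact permutation p of each of the 13 ratios that did not overlap was 0.1. After Benjamini-Hochberg adjustment over the 19 it was 0.146, so no ratio could pass 0.05 in this design. The ratio of *Pdha1* to *Pdhb*, subunits of 1 heterotetramer, is an instance of a small shift, with a log2 change of 0.042. *Pdhx* against *Dlat* (-0.12) and *Sdhc* against *Sdhd* (-0.18) shifted little too, while *Cs* lost against *Idh3a* (-0.35).

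**Figure D4:**
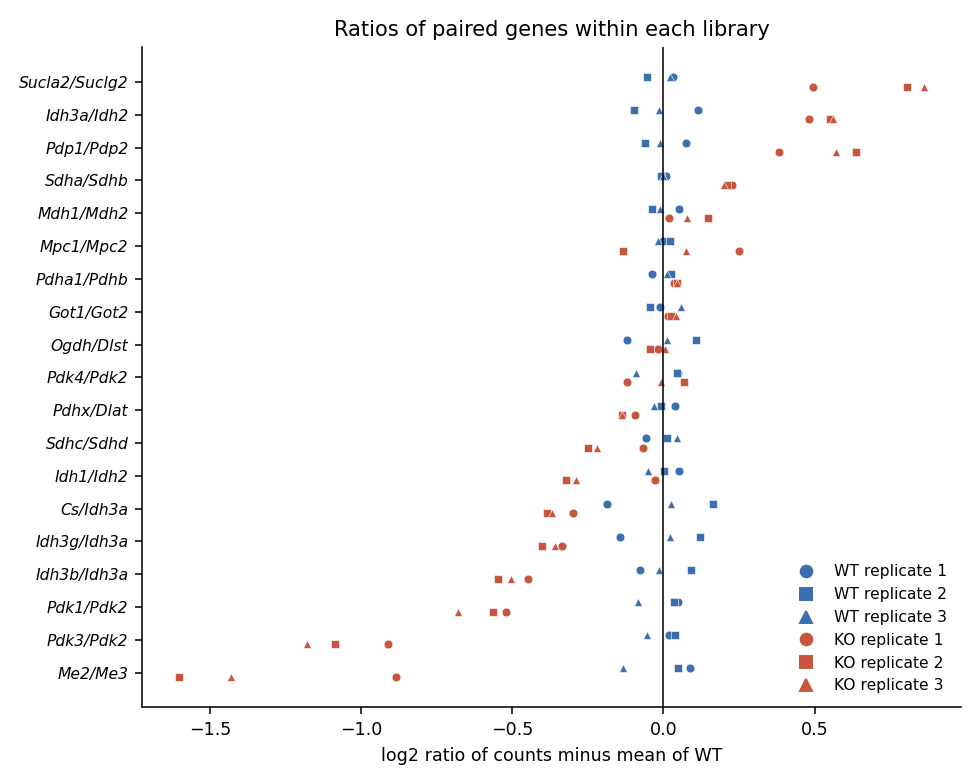
Log2 ratio of counts of 19 gene pairs (rows) in each sample minus the mean over WT samples (x axis), WT in blue and KO in red, with markers for replicates. Ratios run from *Me2* over *Me3* (-1.31) to *Sucla2* over *Suclg2* (0.72), and the red points overlap the blue ones in 6 rows.

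The rise of the 36 genes was smaller than that of the muscle fibre genes of the same libraries. The median log2 CPM of the 20 fibre genes was 9.58, 9.41 and 9.54 in WT and 10.53, 10.89 and 10.84 in KO samples, a change of 1.24, with KO replicate 1 again the lowest KO sample. Set against that median within each library, all 36 genes were lower in KO fetuses, by a median of -0.67 on the log2 scale, and 35 did so without overlap. This share is near that of all genes tested, of which 93.1% were lower relative to the fibre genes without overlap, so the direction is not particular to these genes. The sizes differed. *Me2*, *Pdk3* and *Suclg2* had the largest differences (-1.36, -1.31 and -1.28), and *Pdk2*, *Pdk4* and *Idh3a* the smallest without overlap (-0.25, -0.27 and -0.27), while the samples of *Me3* overlapped (-0.061). Each exact permutation p was 0.1 or higher, and 0.1 is the smallest this design allows. Against 11 sarcomere genes without myosins, which changed by 1.04, the median difference was -0.47. There 32 genes were lower without overlap, as were 89.2% of all genes tested, and *Pdk2*, *Pdk4*, *Idh3a* and *Me3* overlapped (-0.050, -0.070, -0.077 and 0.14).

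Genes that feed, drain or serve the pathway were counted next. Of 77 such genes on 9 lists, 73 were tested, 30 were higher and 10 lower at an adjusted p under 0.05, 33 did not pass, and 11 were called higher and 2 lower. Of all genes tested, 21.9% were higher and 23.1% lower at that adjusted p, and 8.31% were called higher and 8.39% lower. The median log2 fold change of the 73 genes was 0.094. The 4 not tested, *Pdha2*, *Ldhc*, *Got1l1* and *Mdh1b*, are paralogues used mainly in other tissues and summed to 0.094 to 0.24 CPM per library.

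For assembly and cofactor supply, as for the linked lists after them, the shares over all tested genes were 21.9% higher and 23.1% lower. Of the 4 assembly factors of succinate dehydrogenase 1 was higher, *Sdhaf4* (4.93 ± 0.0852 to 6.52 ± 0.875 CPM, log2 fold change 0.40, adjusted p = 0.00893), and 3 did not pass. For lipoate, the prosthetic group of the dehydrogenase cores, 3 of 6 genes were higher and 0 lower, led by *Oxsm* (0.31, adjusted p = 0.00135) and *Mcat* (0.29, adjusted p = 0.00713), both of mitochondrial fatty acid synthesis. Among 13 genes of thiamine, CoA, flavin and NAD supply, 2 were higher and 1 lower, with a median of -0.014. *Slc19a2*, a thiamine transporter of the plasma membrane, fell from 36.3 ± 5.12 to 12.5 ± 0.0628 CPM (-1.53, adjusted p = 1.21e-06).

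The related 2-oxoacid complexes share *Dld* and the same architecture. A list of their genes and of genes linked to them had 4 of 9 higher and none lower, with a median of 0.043. Not all genes on that list code for subunits of these complexes. *Ppm1k*, the phosphatase of the branched-chain complex, changed by 0.58 (adjusted p = 0.000255) and *Bckdha*, a subunit of its first enzyme, by 0.28 (adjusted p = 0.00581).

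Carriers of the inner membrane had 6 of 8 genes higher and 2 lower. The aspartate-glutamate carrier of muscle, *Slc25a12*, rose from 68.2 ± 1.02 to 137 ± 20.7 CPM (1.003 ± 0.094, adjusted p = 2.40e-05), and *Slc25a18*, a glutamate carrier, fell from 1.39 ± 0.157 to 0.804 ± 0.150 CPM (-0.79, adjusted p = 0.00348). Of 7 genes of acetate and lactate use 6 were higher and none lower, with a median of 0.66. *Slc16a3*, the lactate exporter of glycolytic muscle, rose from 53.2 ± 3.04 to 122 ± 14.8 CPM (1.20, adjusted p = 3.32e-06), and *Ldhd*, a dehydrogenase of D-lactate, from 0.622 ± 0.112 to 1.49 ± 0.329 CPM (1.25, adjusted p = 0.000839).

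Of 9 genes that refill or drain the cycle, 3 were higher and 2 lower. *Pcx*, the pyruvate carboxylase that makes oxaloacetate, rose from 17.1 ± 1.57 to 42.7 ± 1.45 CPM (1.32 ± 0.066, adjusted p = 4.55e-07). *Pck1*, cytosolic phosphoenolpyruvate carboxykinase, rose from 0.451 ± 0.341 to 6.48 ± 0.603 CPM (3.79 ± 0.39, adjusted p = 4.83e-05). Both genes are also strongly expressed in fat. Of the 10 fat marker genes, 9 were higher in these KO libraries, while *Ucp1*, a brown fat gene, was lower (log2 fold change -2.01). The part of fat in the rise of *Pcx* and *Pck1* was not tested.

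Among 17 regulators of mitochondrial genes, 5 were higher, 5 lower and 7 did not pass, where 21.9% of all genes tested were higher and 23.1% lower. Their log2 fold changes ran from -0.41 (*Perm1*) to 1.13, so the list did not move in 1 direction. *Ppargc1a*, the coactivator PGC-1alpha, rose from 8.77 ± 0.720 to 17.8 ± 1.82 CPM (1.02 ± 0.091, adjusted p = 1.78e-05), and *Ppara*, a nuclear receptor of fatty acid oxidation, from 3.02 ± 0.284 to 6.62 ± 0.257 CPM (1.13 ± 0.086, adjusted p = 6.38e-06). The list as a whole had a median log2 fold change of 0.084.

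**Figure D5:**
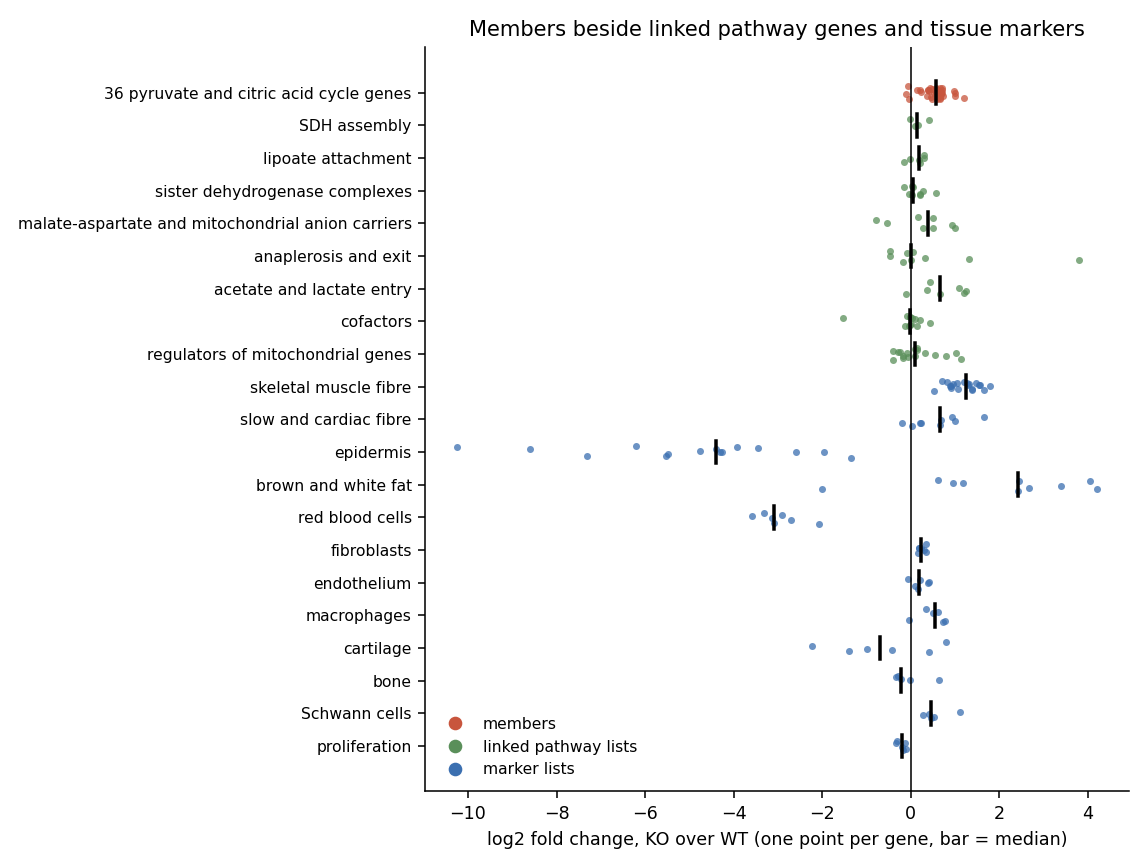
Log2 fold change of KO over WT (x axis, 1 point per gene, black bar for the median) of the 36 genes (red), of 8 lists of linked pathway genes (green) and of 12 marker lists of tissues and proliferation (blue). The median of the 36 genes is 0.58, that of the skeletal muscle fibre list 1.24 and that of the epidermal list -4.40.

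The other marker lists of tissues and proliferation had medians between -0.70 and 0.66. The 4 Y-linked genes, none of which passed the test, had a median of -0.83. The counts that follow stand beside 21.9% higher and 23.1% lower over all genes tested. Of 9 slow and cardiac fibre genes, 7 were higher and 1 lower (median 0.66). Fibroblast genes were higher in 6 of 7 (0.22), endothelial in 4 of 6 (0.18), macrophage in 5 of 6 (0.55) and Schwann cell genes in 5 of 5 (0.46). Of 6 cartilage genes, 4 were lower and 2 higher (-0.70), and of 5 bone genes, 3 were lower and 1 higher (-0.21). Proliferation genes were lower in 5 of 6 (-0.19). Summed levels of macrophage markers ran from 143 to 153 CPM in WT and from 207 to 222 CPM in KO samples, and those of fibroblast markers from 44247 to 46980 CPM and from 53204 to 54979 CPM. Their part in the values of the 36 genes was not tested.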

How the data were processed

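Leg muscle of E18.5 fetuses was profiled by RNA-seq in 3 WT and 3 KO samples. The authors trimmed paired-end reads (Trim Galore 0.6.6), mapped them to mm10 (HISAT2 2.2.1) and counted them per gene (featureCounts 2.0.1). The deposited values are raw counts, without normalization. Gene annotation, strand setting and whether reads or pairs were counted are not given in the sources used here. Own files and the series table differed in 0 values. Symbols and positions came from GENCODE M21 (55227 of 56262 IDs matched). Lengths for values per kilobase are the union of all annotated exons of a gene, whether or not they were expressed here. Levels and shares per kilobase compared between genes depend on that choice. Depth was 82054811 to 102233181 counts per sample, where a count of 0 allows at most 3 counts (0.0293 to 0.0366 CPM), counting error only.

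Counts were tested in R 4.3.3 with edgeR 4.0.16 (filterByExpr, TMM, quasi-likelihood F-test on genotype), with Benjamini-Hochberg adjustment over 22071 genes. Genes were called at an adjusted p under 0.05 with more than a 1.5-fold change, and ± beside a log2 fold change is its SE. Ratios and differences from fibre genes (log2 CPM, prior count 2) were tested by two-sided exact permutation over samples. The step was tested on simulated data. The members, lists and tests were chosen with earlier results of these data known. All members are named, in full where called. Of each linked list the 2 largest changes past adjusted p with a mean of at least 1 CPM are named. Alternatives were other scalings, DESeq2 1.42.0, limma-voom (limma 3.58.1), other filters, a replicate block, a Y-linked covariate, fold change over 2 and leaving out each sample. Protein sequences were not used here.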

Additional observations from a re-analysis of the deposited data

How the results depend on the processing

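The count of 32 genes higher at an adjusted p under 0.05 ranged from 32 to 33 over 16 alternative fits, and the median log2 fold change of the 36 genes from 0.51 (library size alone) to 0.68 (without KO replicate 1). The count called higher was 17 in the fit reported, 18 with RLE factors and with DESeq2, 17 with limma-voom, with either other filter and without the 10 most counted genes, 22 with upper-quartile factors, 13 with library size alone, 20 with the Y-linked share as a covariate, and 13 to 22 when 1 sample was left out. Of the 17, 12 were called in all 16. At a fold change over 2, only 1 was called (*Me3*). No gene was called lower in any of these fits. The count lower at an adjusted p under 0.05 went from 0 to 2 with library size alone (*Pdk3* and *Me2*) and to 1 with the Y-linked share (*Me2*). *Pdp2* passed as higher with upper-quartile factors (0.21). Of the 576 values of single genes, 569 kept their direction and their side of an adjusted p of 0.05, 4 passed it only in the alternative, and 3 changed sign, none of them past it. With the fold threshold of 1.5 added, 10 of the 576 lost a call and 18 gained one. The sign changes were *Pdk3* with upper-quartile factors (0.0039), and *Suclg2* with upper-quartile factors (0.032) and without WT replicate 1 (0.011, in a range of -0.066 to 0.011 when 1 sample was left out). The cause was not tested. With sarcomere genes as the reference in place of the fibre list, the median difference moved from -0.67 to -0.47, and *Me3* went from -0.061 to 0.14. Same-numbered samples shared only a number (correlations of their deviations -0.20, -0.13 and 0.047), and with the replicate block 17 genes were called and 32 were higher. With 3 samples a group, an exact test cannot reach 0.05, and depth limits none of the 36 genes.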
